A study of Mus musculus with 9 samples.

Results

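The cytoplasmic ribosomal protein genes were examined in RNA-sequencing counts from mouse thyroid. They were taken from the count table by symbol, as Rpl or Rps followed by a number and at most one letter a, x or l, together with Rpsa, Rplp0, Rplp1 and Rplp2, and with rows named as pseudogenes left out. This gave 80 of 33924 genes, 48 of the large and 32 of the small ribosomal subunit. The 9 libraries came from whole mouse thyroids of 3 genotypes, 3 each of wild type, Arid2 KO and Smarcb1 KO by label. The targeted genes encode 2 subunits of the SWI/SNF chromatin remodelling complexes. The design sets tissue labelled as a knockout of either gene beside tissue labelled wild type. The labels give no age, no sex, no Cre driver and no promoter. They leave unstated whether each library is a separate animal, so that p-values cover the spread among libraries alone.

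The ribosome is built from ribosomal RNA and a set of proteins that most cells make in near-equal numbers, so their transcripts are among the most abundant and most evenly expressed of a tissue. The small subunit reads the messenger RNA and the large subunit joins amino acids. On the large subunit a flexible stalk, made of the proteins of Rplp0, Rplp1 and Rplp2, recruits the elongation factors. Many of these messenger RNAs start with a run of pyrimidines through which mTOR signalling sets their translation, and cells with high protein output, such as thyroglobulin-producing thyrocytes, hold many ribosomes.

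Total counts ran from 33666251 to 89553766, with the Arid2-labelled libraries the deepest. The 7 thyrocyte markers summed to 228182 to 324302 CPM (counts scaled to library size, here with TMM factors) in all libraries, led by Tg. Tg alone held 24.1% to 30.8% of a library's counts. Against wild type 6 of the 7 had a negative log2 fold change under each KO label. In Arid2-labelled libraries 4 lay below and 1 above all wild-type libraries, and edgeR called 0. In Smarcb1-labelled libraries 3 lay below, and edgeR called 1 lower. Arid2 stood at 59.9 to 94.6 CPM in the Arid2-labelled libraries and 67.8 to 75.0 in wild type. Smarcb1 stood at 47.5 to 59.4 CPM in the Smarcb1-labelled libraries and 65.9 to 71.7 in wild type (edgeR adjusted p = 0.0651). These levels neither bear out nor contradict the labels, and the groups are named by label throughout. Several libraries stood apart. The 9 thymocyte markers summed to 1386 CPM in Arid2-labelled replicate 1 and 242.5 in Smarcb1-labelled replicate 2, against 6.44 to 16.9 in the others. The 3 parathyroid markers (Pth, Gcm2, Casr), none of them at 0 in all libraries, summed to 8.16 to 4320 CPM in wild type, 10.6 to 1581 in the Arid2-labelled and 6092 to 16992 in the Smarcb1-labelled libraries, so that the last group lay above all others. Xist stood at 809 CPM in Smarcb1-labelled replicate 3 and at 0.643 to 2.60 in the other 8 libraries. In bulk tissue, fewer cells of a type and less RNA per cell cannot be told apart.

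The ribosomal protein genes together took nearly the same share of the counts in the 3 groups. They held 1.27%, 1.69% and 1.40% in wild-type replicates 1 to 3, while the shares were 1.45%, 1.39% and 1.54% under the Arid2 KO label and 1.53%, 1.36% and 1.25% under the Smarcb1 KO label. The groups overlapped, and the spread within wild type was wider than any difference between means. The means were 1.45% ± 0.21 in wild type, 1.46% ± 0.08 in Arid2-labelled and 1.38% ± 0.14 in Smarcb1-labelled libraries (SD, n = 3). By an exact two-sided permutation test p was 1 for Arid2-labelled against wild type, 0.6 for Smarcb1-labelled against wild type and 0.4 for Smarcb1-labelled against Arid2-labelled, where 3 libraries against 3 cannot go below 0.1. Both subunits moved together, with 1.37 to 1.44 large-subunit counts for each small-subunit count in all 9 libraries.

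**Figure D1:**
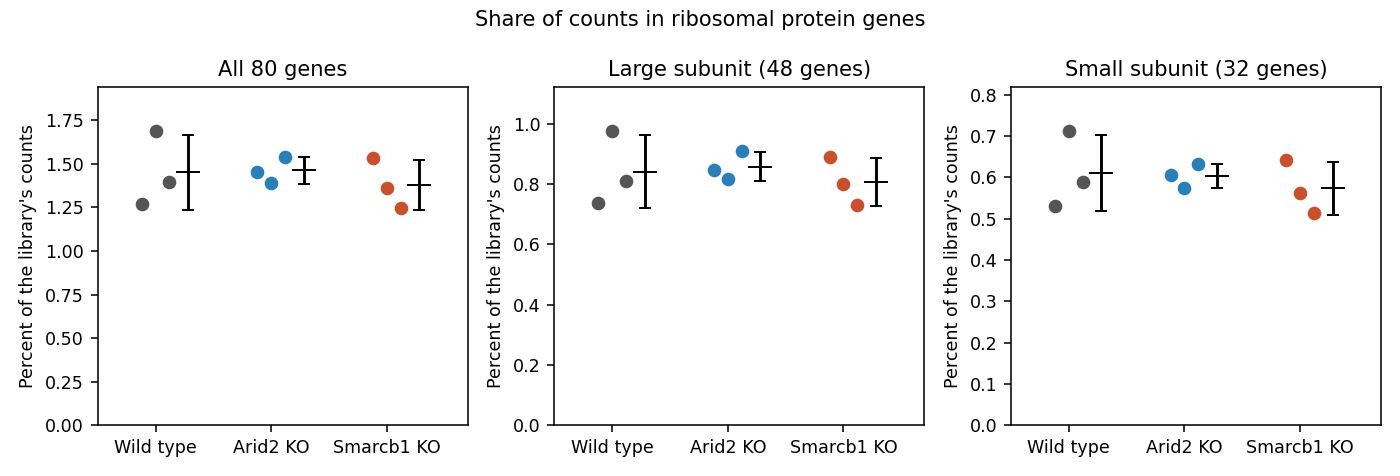
Share of each library's counts (y axis, percent) held by all 80 ribosomal protein genes, the 48 of the large subunit and the 32 of the small subunit; points are libraries and the bar is the mean with its SD. The 3 groups overlap in every panel, with the whole set between 1.25% and 1.69%.

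Of the 80 genes, 78 passed the filter on low counts and entered an edgeR fit of 17079 genes. Rpl10l and Rpl39l, paralogs best known from the testis, did not pass. Rpl10l had 2 counts in Arid2-labelled replicate 1 and 0 elsewhere, and Rpl39l had 1 to 5 counts in each library. Of the tested genes Rpl3l, the striated-muscle paralog of Rpl3, was by far the lowest, at 3.20 CPM per kb of coding transcript in wild type. The other 77 genes had at least 814 counts in every library, the fewest being those of Rpl35.

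Levels in wild type, per kb of coding transcript, had a median of 222 CPM over these 77 genes. Rplp1, one of the stalk genes, was highest at 657 CPM per kb, followed by Rpl7 at 584, Rps27 at 582 and Rpl10 at 560. Rpl35 at 29.7, Rps20 at 52.2 and Rpl5 at 59.4 CPM per kb were the lowest after Rpl3l. The annotated coding transcripts of Rps20 (3706 bases) and Rpl5 (2045 bases) are long, which lowers a per-length value. Wild-type libraries differed by a median coefficient of variation of 11.3% over the 77 genes, from 6.02% for Rpl7a to 33.0% for Rpl29. No order among neighbours in this ranking was tested.

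All 3 stalk genes fell in the Smarcb1-labelled libraries. Their coding sequences end in a shared stretch that encodes the acidic tail by which the stalk binds elongation factors. The last 42 coding bases are shown (GENCODE M21 annotation, GRCm38), with the bases that are equal in all 3 genes in capitals, 30 of 42 (71.4%).
Rplp0, chr5:115563403-115563444, plus strand: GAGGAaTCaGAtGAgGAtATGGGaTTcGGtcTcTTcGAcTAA
Rplp1, chr9:61913324-61913365, minus strand: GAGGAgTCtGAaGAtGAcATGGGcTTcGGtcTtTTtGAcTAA
Rplp2, chr7:141451267-141451308, plus strand: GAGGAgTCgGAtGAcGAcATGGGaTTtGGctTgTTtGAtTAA
The stretches differ pairwise at 8 to 10 bases, the most alike being Rplp0 and Rplp1 (81.0% identity).

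Rplp1 had levels of 252.5, 385 and 345 CPM in wild-type replicates 1 to 3, 269.7, 280.4 and 317 CPM under the Arid2 KO label and 116, 137 and 90.9 CPM under the Smarcb1 KO label. The last 3 libraries were below all others by a wide gap. The log2 fold change of Smarcb1-labelled against wild type was -1.52 (SE 0.19, edgeR adjusted p = 0.00499), or 2.86-fold lower. In wild type Rplp2 stood at 100.5, 114 and 129.7 CPM, with 121, 112 and 134 in Arid2-labelled, and 45.5, 72.3 and 60.6 in Smarcb1-labelled libraries. The last group differed from wild type by a log2 fold change of -0.95 (SE 0.17, edgeR adjusted p = 0.0175). Rplp0, which anchors the stalk to the ribosome, had wild-type levels of 498, 579 and 526 CPM, with 523, 550.4 and 562 in Arid2-labelled, and 402, 322 and 370.3 in Smarcb1-labelled libraries. The groups did not overlap, and the log2 fold change was -0.55 (SE 0.12, edgeR adjusted p = 0.0274). The 3 stalk genes thus moved by unequal amounts in the same libraries.

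**Figure D2:**
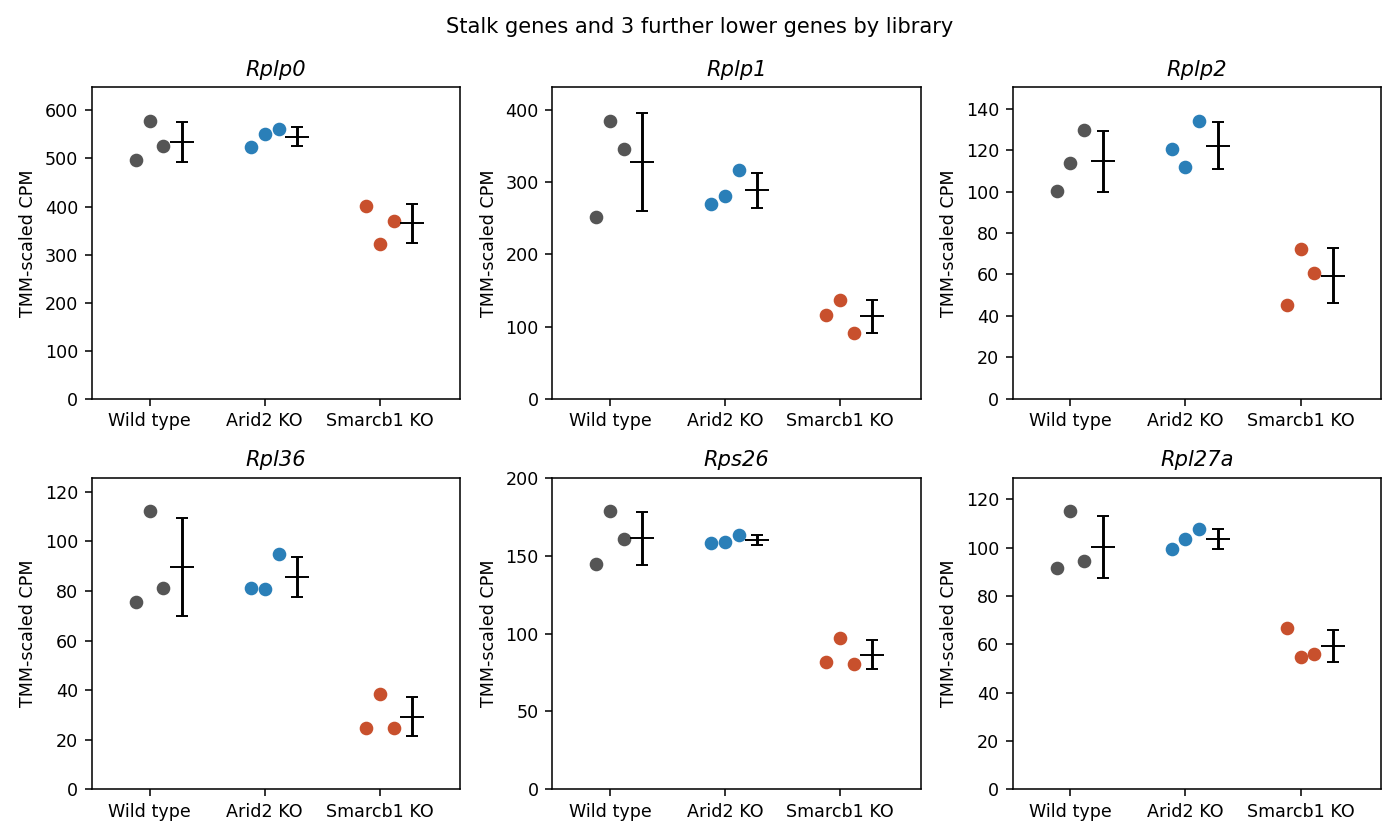
TMM-scaled CPM (y axis) of the stalk genes Rplp0, Rplp1 and Rplp2 and of Rpl36, Rps26 and Rpl27a in each library; points are libraries and the bar is the mean with its SD (n = 3). In each panel the 3 Smarcb1-labelled libraries lie below all 6 others, as for Rplp1 (90.9 to 137 CPM against 252.5 to 385).

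Over all tested members, 14 of 78 fell and 0 rose in Smarcb1-labelled against wild-type libraries by edgeR's test. That is 17.9% lower, where 5.74% of all tested genes were lower and 2.15% higher. At an unadjusted p under 0.05, 24 members were lower and 9 higher, where 14.6% of all tested genes were lower and 13.8% higher, so that the higher members were no more frequent than among all genes. DESeq2 called 18 members lower and 3 higher, against 10.3% and 5.89% of all genes, and limma-voom 14 and 0, against 5.35% and 1.77%. The members had a median log2 fold change of -0.10 and all genes tested one of 0.05, and the single values ran from -1.61 to 0.49. The members' median was -0.003 with the GC trend and 0.036 with the length trend removed, and -0.023 without wild-type replicate 2, -0.177 without wild-type replicate 1 and -0.0599 without Smarcb1-labelled replicate 3. The lower genes were spread over both subunits, 9 of 46 in the large and 5 of 32 in the small subunit. In 24 members (30.8%) all Smarcb1-labelled libraries lay below all wild-type libraries, against 16.7% of all tested genes, and in 6 (7.69%) they lay above, against 17.1%.

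In the large subunit Rpl36 had the lowest log2 fold change, below that of Rplp1. Wild-type libraries held 75.6, 112 and 81.2 CPM of it and the Smarcb1-labelled ones 24.6, 38.4 and 24.8, with Arid2-labelled libraries at 81.3, 80.6 and 95. The log2 fold change was -1.61 (SE 0.21, edgeR adjusted p = 0.00562), or 3.06-fold lower. Rpl27a stood at 91.6, 115 and 94.4 CPM in wild type against 66.9, 54.9 and 56.1 in Smarcb1-labelled libraries (log2 fold change -0.76, SE 0.12, edgeR adjusted p = 0.0110). Its Arid2-labelled libraries (99.2 to 108 CPM) lay within the wild-type range. Rpl10a, of the mobile side stalk where spent transfer RNA leaves, was even within groups, with 109, 129.8 and 109 CPM in wild type against 76.4, 77.8 and 72.2 in Smarcb1-labelled libraries. Its log2 fold change was -0.62 (SE 0.10, edgeR adjusted p = 0.0108). Rpl18 (-0.65, adjusted p = 0.0160), Rpl8 (-0.65, adjusted p = 0.0218) and Rpl13 (-0.48, adjusted p = 0.0301) fell by less than 2-fold in edgeR's test. The protein of Rpl8 lies next to the site of peptide bond formation.

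In the small subunit Rps26 changed most clearly. Its protein lines the channel through which messenger RNA leaves, and the human gene is one of those mutated in Diamond-Blackfan anaemia. In wild type Rps26 stood at 144, 179 and 161 CPM, with 158, 159 and 164 in Arid2-labelled, and 81.8, 97.0 and 80.5 in Smarcb1-labelled libraries. The log2 fold change was -0.90 (SE 0.11, edgeR adjusted p = 0.0050), or 1.87-fold lower, with no overlap. Rps2, whose protein sits at the entry of the messenger RNA channel, stood at 232, 196 and 205 CPM in wild type against 88.6, 114 and 149 in Smarcb1-labelled libraries (log2 fold change -0.85, SE 0.17, edgeR adjusted p = 0.0232). The Smarcb1-labelled libraries of this gene differed widely among themselves. Rps21 (-0.69, adjusted p = 0.0343) and Rps13 (-0.37, adjusted p = 0.0396) also passed edgeR's test.

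Rplp1, Rps26 and Rpl36 kept their call in each of the 15 alternative settings and in each of the 9 fits without 1 library. The other calls were less steady. Lower calls numbered 5 when Smarcb1-labelled replicate 3 was left out, 7 when wild-type replicate 1, 6 when wild-type replicate 2, 6 when wild-type replicate 3 and 9 when Arid2-labelled replicate 2 was. Lower calls over all tested genes fell in these fits too, from 981 with all libraries to 291, 319, 372, 448 and 536, respectively. With wild-type replicate 3 left out Rplp2 had an adjusted p of 0.0541, and 0.0618 with Smarcb1-labelled replicate 3 left out. Rpl27a had 0.0504 without Smarcb1-labelled replicate 3, and Rplp0 had 0.0667 to 0.0860 without any one wild-type library, 0.0834 without Smarcb1-labelled replicate 3 and 0.0555 without Arid2-labelled replicate 2 (edgeR). Without Smarcb1-labelled replicate 2, 16 members were lower and 4 were higher (Rpl5, Rpl9, Rpl30 and Rps27a). In that fit 1483 of 17318 tested genes were lower and 1055 higher, so that higher members were no more frequent than among all genes.

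No member rose by edgeR's test with all libraries. Rpl5, which forms a particle with Rpl11 and 5S ribosomal RNA that can bind the p53 inhibitor Mdm2, had the highest log2 fold change of the set at 0.49 (SE 0.15, edgeR adjusted p = 0.0708). Its libraries stood at 111, 131 and 122 CPM in wild type against 209.9, 139.9 and 161 in Smarcb1-labelled, without overlap. Its partner Rpl11 differed by -0.03 (SE 0.13), with overlapping groups. Of the 7 genes whose proteins surround the exit tunnel of the large subunit (Rpl4, Rpl17, Rpl19, Rpl23a, Rpl31, Rpl35 and Rpl39), none was called by edgeR (1 higher and 1 lower at an unadjusted p under 0.05), and their log2 fold changes ran from -0.25 to 0.32. Of the 19 members whose human counterparts are mutated in Diamond-Blackfan anaemia, Rps26 and Rpl18 fell and 17 did not pass. That is 10.5% lower, beside 17.9% of all tested members and 5.74% of all tested genes.

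**Figure D3:**
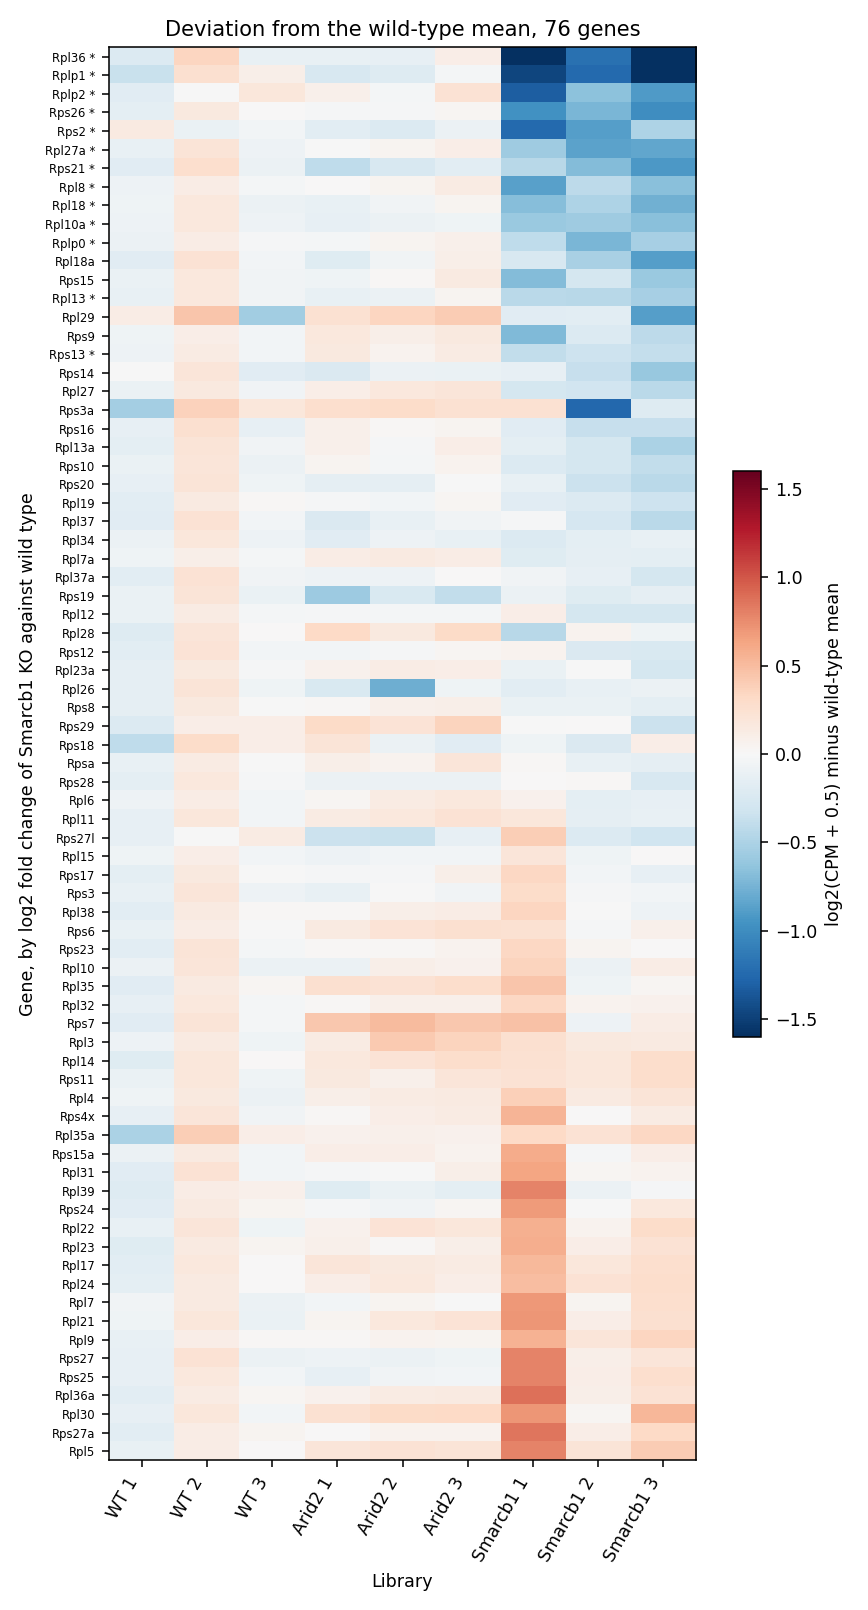
Each library's log2(CPM + 0.5) minus the wild-type mean (colour) for 76 ribosomal protein genes (rows, ordered by the log2 fold change of Smarcb1-labelled against wild-type libraries) in the 9 libraries (columns); asterisks mark the 13 genes shown with an edgeR adjusted p under 0.05 in that comparison, and Rpl3l is left out. The Smarcb1-labelled libraries run from blue at Rpl36 and Rplp1 to red at Rpl5, most widely in replicate 1.

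Among themselves the members moved less as a block than apart from each other. Deviations were taken from each gene's mean over all 9 libraries. Their SD over the 77 genes was 0.43 (log2) in Smarcb1-labelled replicate 1, 0.31 in replicate 3 and 0.21 in replicate 2. It was 0.16 to 0.19 in the 6 other libraries. The median deviation of the same 77 genes lay between -0.14 and 0.17 in all 9 libraries. The first principal component of their log2 levels held 64.1% of the variance, with the Smarcb1-labelled libraries at 1.62 to 3.15 and the other 6 at -1.88 to -0.90. The Arid2-labelled and wild-type libraries overlapped on it.

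In Arid2-labelled against wild-type libraries 0 of 78 members rose and 0 fell by edgeR's test, where 0.234% of all tested genes were higher and 0.322% lower. At an unadjusted p under 0.05, 2 were higher (Rpl3 and Rps7) and 1 lower (Rps19), where 7.86% of all tested genes were higher and 7.02% lower. Rpl3 averaged 247 CPM in wild type and 305 in Arid2-labelled libraries. The pseudogene row Rpl3-ps1, equal to Rpl3 at 1207 of 1209 aligned coding bases, went the other way. Scaled to library totals, it held 33.2, 42.3 and 29.3 CPM against 16.7, 2.04 and 2.21. The row Rpl3-ps2 was higher, at 1.61 to 3.82 against 0.15 to 0.36 CPM, and the difference of Rpl3 is uncertain. Limma-voom called 0 members, against 0.24% of all genes higher and 0.351% lower, and DESeq2 called Rps19 lower, against 2.39% higher and 2.77% lower. The median log2 fold change was 0.04, against 0.02 for all genes. It was -0.028 without wild-type replicate 1, 0.131 without wild-type replicate 2, 0.019 without wild-type replicate 3 and 0.012 without Arid2-labelled replicate 3, so its sign was not fixed. The 95% interval of the fold change lay within 1.5-fold in either direction for 65 of the 78 genes (83.3%). In 7 members (8.97%) all Arid2-labelled libraries lay above all wild-type libraries and in 1 (1.28%) below, against 12.9% and 12.6% of all tested genes. Markers of other cell types lay apart in this comparison too. The 3 airway markers summed to 18.9 to 56.5 CPM in Arid2-labelled against 1.13 to 1.65 in wild-type libraries, the 3 endothelial markers to 310 to 369 against 179 to 234, and the 3 fibroblast markers to 583 to 664 against 859 to 978. None of these 9 genes was at 0 in all libraries, edgeR called 1 airway and 1 endothelial marker higher, and their part in the values of the members was not tested.

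The widest separated differences in that comparison were small. Rps7 stood at 95.8, 126 and 106 CPM in wild type against 146, 154 and 147 in Arid2-labelled libraries (log2 fold change 0.45, SE 0.15, edgeR adjusted p = 0.215). Rps19, whose human counterpart is the most often mutated in Diamond-Blackfan anaemia, stood at 176, 218 and 176 CPM in wild type against 126, 159 and 144 in Arid2-labelled libraries (-0.41, SE 0.12, edgeR adjusted p = 0.170). Neither gene's groups overlapped, and neither passed the test. Rps29 and Rpl30 differed by 0.29 each (edgeR adjusted p = 0.343 and 0.467), also without overlap. The stalk genes Rplp0, Rplp1 and Rplp2 differed by 0.03, -0.18 and 0.09, each with an SE of 0.12 to 0.19.

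Smarcb1-labelled against Arid2-labelled libraries share the Smarcb1-labelled samples with the comparison above and are given for their own values. Here 15 of 78 members fell (19.2%) and 0 rose by edgeR's test, where 9.32% of all tested genes were lower and 6.95% higher, and 25 were lower and 4 higher at an unadjusted p under 0.05, against 18.1% and 17.7% of all genes. DESeq2 called 23 members lower and 2 higher, against 13.4% and 12% of all genes, and limma-voom 15 and 0, against 9.9% and 7.18%. The members had a median log2 fold change of -0.11, against 0.003 over all genes. Rps26 differed by -0.89 (SE 0.11, edgeR adjusted p = 0.00493), Rpl36 by -1.55 (SE 0.21, adjusted p = 0.00562), Rplp1 by -1.33 (SE 0.19, adjusted p = 0.00644), Rpl27a by -0.80 (SE 0.12, adjusted p = 0.00746), Rplp2 by -1.04 (SE 0.17, adjusted p = 0.00998) and Rplp0 by -0.58 (SE 0.12, adjusted p = 0.0173). Rpl8, Rpl10a, Rpl13, Rpl18, Rpl27, Rps2, Rps9, Rps13 and Rps15 fell as well, by 0.42 to 0.71 on the log2 scale. Rps15 moved from -0.54 to 0.27 when each library's GC trend was removed. All Smarcb1-labelled libraries lay below all Arid2-labelled ones in 30 members (38.5%) and above them in 10 (12.8%), against 20.5% and 18.3% of all tested genes. Lower calls numbered 4 without Arid2-labelled replicate 3 (Rpl27a, Rpl36, Rplp1 and Rps26), 7 without Arid2-labelled replicate 2 and 9 without Smarcb1-labelled replicate 3, and Rplp2 then had an adjusted p of 0.0503 without Arid2-labelled replicate 3 (edgeR). Over all tested genes lower calls fell from 1592 to 297, 570 and 623 in these fits. Without Smarcb1-labelled replicate 2, 16 members were lower and 5 were higher (Rpl7, Rpl9, Rps25, Rps27 and Rps27a). In that fit 2220 of 17318 tested genes were lower and 2191 higher, so that higher members were less frequent than among all genes.

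The lower members were rich in guanine and cytosine (GC). The median GC content of the coding transcript was 55.6% in the 14 lower members and 50.7% in the 64 not called. Pearson's r between log2 fold change and GC content across the 78 genes was -0.57 in Smarcb1-labelled against wild-type and 0.10 in Arid2-labelled against wild-type libraries. Across all tested genes with a value, r was -0.47 and 0.05. These are descriptions, since genes of the same libraries are not independent. Deviations were again taken from each gene's mean over all 9 libraries (log2). In the 26 members with the lowest GC content, their median was 0.42 in Smarcb1-labelled replicate 1, 0.04 in replicate 3 and -0.07 in replicate 2. In the 26 with the highest it was -0.14, -0.34 and -0.19 in the same libraries. Wild-type replicates 1 to 3 stood at -0.23, 0.08 and -0.09 for the lowest and at 0.03, 0.29 and 0.06 for the highest GC content.

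Rps26 and Rpl27a did not lie on this slope. Their coding transcripts hold 48.6% and 48.5% GC. The 12 other members within 1 percentage point of Rps26 had a median log2 fold change of 0.24 and none was lower than Rpl27a at -0.76. Rplp1, at 57.3% GC, was lower than all 7 members within 1 point of it, which ran from -0.65 (Rpl8) to 0.15 and had a median of -0.48. Rpl28, the only member within 1.5 points of Rpl36 (60.8% GC), had a log2 fold change of -0.15. With each library's trend over all genes in the GC content of their longest transcripts removed, 8 members were lower (Rpl10a, Rpl18, Rpl27a, Rpl36, Rplp1, Rplp2, Rps13 and Rps26) and 1 was higher (Rps15), and the calls lost included those of Rplp0, Rpl8, Rpl13, Rps2 and Rps21. Over all 17079 tested genes lower calls went from 981 to 231 and higher calls from 368 to 162. Whether the GC trend takes part in the lost calls of members was not tested further.

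**Figure D4:**
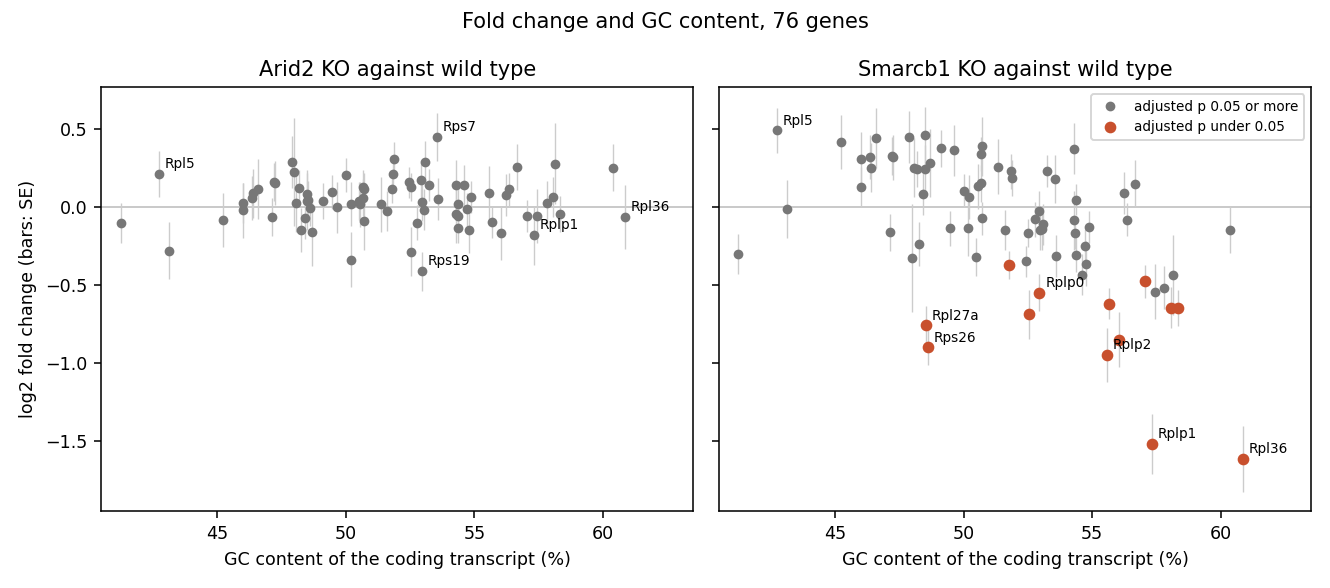
GC content of each gene's coding transcript (x axis, percent) against its log2 fold change (y axis, bars are the SE) for 76 ribosomal protein genes, in Arid2-labelled (left) and Smarcb1-labelled (right) against wild-type libraries; orange points had an edgeR adjusted p under 0.05. On the right the points fall with GC content while Rps26 (-0.90) and Rpl27a (-0.76) sit low at about 48.5% GC, and on the left they stay near 0.

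The parathyroid markers moved with the same groups, as all 3 of 3 lay higher in every Smarcb1-labelled than in every wild-type library. In that comparison edgeR called 0 of these markers, and 1 had an unadjusted p under 0.05. With their mean level as a covariate, 5 of the 14 calls against wild type held (Rpl10a, Rpl27a, Rpl36, Rplp1 and Rps26) and 2 against Arid2-labelled libraries (Rpl36 and Rps26). Over all tested genes lower calls went from 981 to 168 and from 1592 to 110, so that the loss was not particular to the members. The sum of the 5 erythroid markers separated the same group, at 100.1 to 190 CPM in Smarcb1-labelled, 296 to 1395 in wild-type and 251 to 654 in Arid2-labelled libraries. Singly, 2 of the 5 lay below all wild-type and 3 below all Arid2-labelled libraries. Against the latter 1 had a positive log2 fold change. None of the 5 was at 0 in all libraries, 2 were called lower against wild type by edgeR, and their part in the results was not tested. Without the 2 libraries that held thymocyte markers, 13 members were lower against wild type, the 3 stalk genes among them, and 2 were higher (Rpl5 and Rpl30). In that fit 1563 of 17200 tested genes were lower and 603 higher, so that higher members were no more frequent than among all genes.

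Paralogs with restricted expression behaved differently from one another. Rpl3l had 334, 7 and 97 counts in wild-type replicates 1 to 3, 725, 235 and 914 in Arid2-labelled, and 72, 264 and 25 in Smarcb1-labelled libraries. The 7 skeletal muscle markers summed to 881, 16.2 and 370.5 CPM in the same wild-type libraries, 921, 356 and 1525 in Arid2-labelled, and 237, 876 and 78.2 in Smarcb1-labelled libraries. Within each group the order of Rpl3l followed that of the muscle markers, and the part of muscle RNA in its differences was not tested (log2 fold change 1.0, SE 1.1, edgeR adjusted p = 0.728 for Arid2-labelled and -0.63, SE 1.11, adjusted p = 0.740 for Smarcb1-labelled against wild type). Rps27l, a p53-responsive paralog of Rps27, differed by -0.28 (SE 0.18) and -0.01 (SE 0.18) and passed in neither (edgeR adjusted p = 0.524 and 0.970).

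Paralogs whose symbols fall outside the set were read beside it. Rps4y2, the symbol under which the table lists the Rps4x-like gene Rps4l, had 222, 164 and 330 counts in wild type against 51, 144 and 58 in Smarcb1-labelled libraries, a log2 fold change of -1.79 (SE 0.38, edgeR adjusted p = 0.0270). Rps4x itself differed by 0.24 (SE 0.16, edgeR adjusted p = 0.327). The difference of Rpl22l1, a paralog of Rpl22, was 0.41, that of Rpl7l1 0.18 and that of Rpl36al -0.14, and none passed edgeR's test.

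Single libraries departed from their group in a few members. Rps3a stood at 105 CPM in Smarcb1-labelled replicate 2, against 300.2 and 219 in the other 2 of its group, and at 173 in wild-type replicate 1, against 327 and 285. Rpl29 stood at 32.1 CPM in Smarcb1-labelled replicate 3 (52.5 and 52.8 in the others) and at 40.4 in wild-type replicate 3 (64.5 and 81.2). Rpl35a at 76.4 CPM in wild-type replicate 1, Rpl26 at 111 CPM in Arid2-labelled replicate 2 and Rpl39 at 119 CPM in Smarcb1-labelled replicate 1 likewise stood apart.

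Start sites were read for the pyrimidine run that marks messages under translational control by mTOR. RefSeq windows (GRCm38.p6) were found for 60 of the 80 genes. The letters CTTTC occurred on the transcribed strand within 15 bases of the annotated start in 17 of the 60 (28.3%), against 4.76% of all 27025 genes with a window. The same letters on the other strand (GAAAG) occurred in 3 of the 60 (5%), against 4.21%. The lower genes in Smarcb1-labelled libraries held CTTTC in 5 of 10 and the rest in 12 of 50, a split that was not tested. Rpl8, Rpl36 and Rplp1, also lower, are among the genes without a window. The 5 windows of lower genes with CTTTC are shown, with these letters in capitals, and none of them holds GAAAG. In the window of Rpl13 the letters lie before the annotated start.
Rps26, chr10:128626492-128626521, minus strand: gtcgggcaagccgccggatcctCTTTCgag
Rplp2, chr7:141447636-141447665, plus strand: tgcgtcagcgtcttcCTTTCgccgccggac
Rpl27a, chr7:109519180-109519209, plus strand: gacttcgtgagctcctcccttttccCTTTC
Rpl18, chr7:45718056-45718085, plus strand: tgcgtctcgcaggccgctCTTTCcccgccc
Rpl13, chr8:123102335-123102364, plus strand: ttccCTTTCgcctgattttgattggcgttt
The match is a description of these letters and not of a start site in thyroid.

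Counts of ribosomal protein genes can be shared with their many processed pseudogenes, near-identical copies without introns, so small differences are uncertain where a copy has reads. The table has 206 rows named as pseudogenes of the 80 genes, 187 of them above 0 in some library. Together they held as many counts as 0.699% to 0.927% of the parents' counts. A few rows were present in some libraries and nearly absent from others. Rps13-ps1 had 414, 408 and 327 counts in the Smarcb1-labelled libraries and at most 2 in the others. With pseudogene rows added to their parents, Rps13 lost its call against both groups, and its lower level is uncertain. Of Rps2-ps13, 1150 and 1221 counts were found in replicates 2 and 3 of the Arid2-labelled group and at most 4 elsewhere, and the call of Rps2 held with the rows added. The stretch below shows how close such a copy is, with the 2 bases that differ in capitals (GENCODE M21, GRCm38), and over 882 aligned coding bases the pair is 99.2% identical.
Rps2, chr17:24720305-24720376, plus strand: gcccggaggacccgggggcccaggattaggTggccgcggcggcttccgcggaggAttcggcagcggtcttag
Rps2-ps13, chrX:52898617-52898688, plus strand: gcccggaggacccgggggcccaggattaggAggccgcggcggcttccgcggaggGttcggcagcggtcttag

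**Figure D5:**
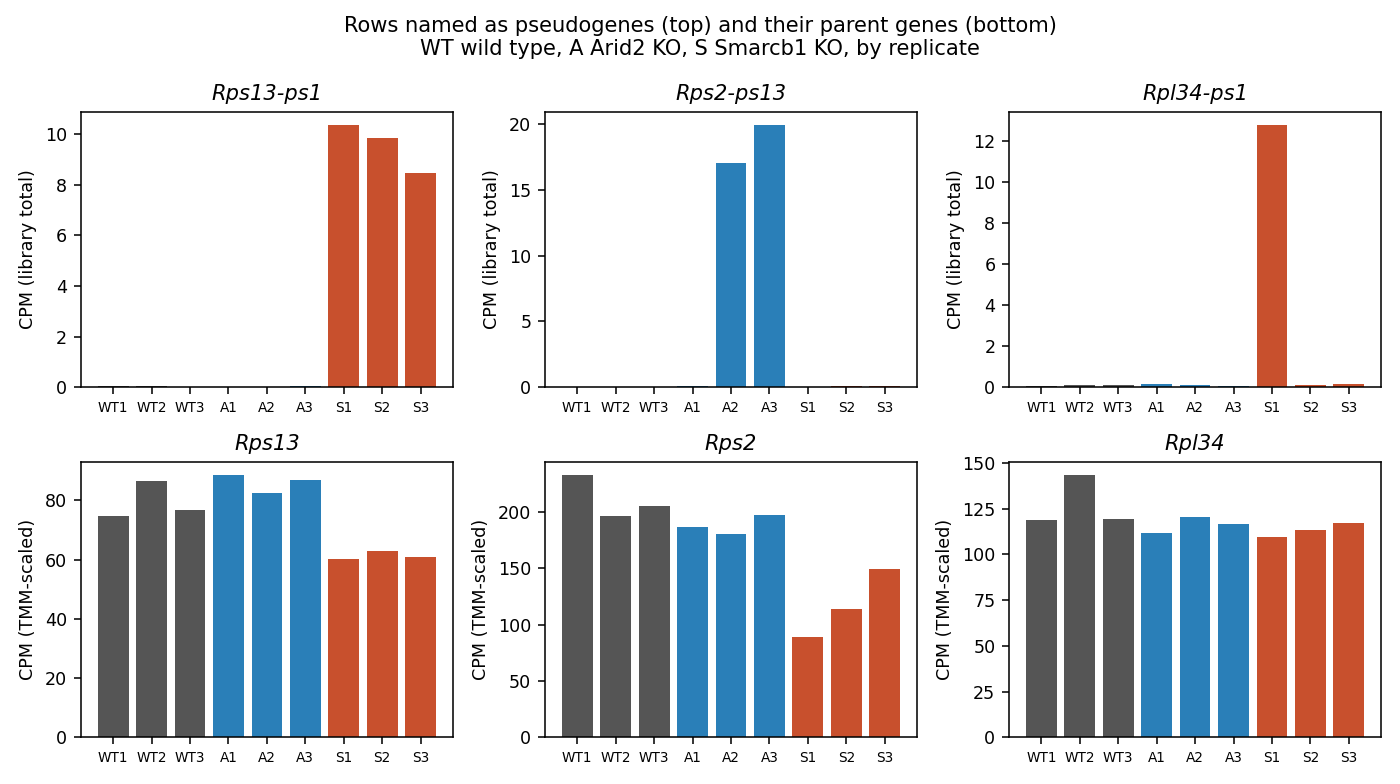
CPM (y axis) of 3 rows named as pseudogenes (top, scaled to library totals) and of their parents Rps13, Rps2 and Rpl34 (bottom, TMM-scaled) in each of the 9 libraries (x axis). Rps13-ps1 is seen in the 3 Smarcb1-labelled libraries, Rps2-ps13 in 2 Arid2-labelled libraries and Rpl34-ps1 in 1 Smarcb1-labelled library, each far below the level of its parent.

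Genes that work with the ribosome were read from 6 further lists. Among ribosomal proteins with other names, Fau, which encodes a small-subunit protein fused to a ubiquitin-like one, fell in Smarcb1-labelled against wild-type libraries. It stood at 118, 151 and 125 CPM in wild type against 64.1, 76.4 and 64.4 in Smarcb1-labelled libraries (log2 fold change -0.95, SE 0.12, edgeR adjusted p = 0.00530). Gnb2l1, the gene of the ribosome-bound scaffold RACK1, differed by -0.22 and did not pass. None of the 17 other messages with a starting pyrimidine run (elongation factors and the like) was called against wild type by edgeR, with 2 higher and 1 lower at an unadjusted p under 0.05. Eef2, the elongation factor that the stalk recruits for translocation, differed by -0.42 (SE 0.18, edgeR adjusted p = 0.164) against wild type and fell by 0.70 (adjusted p = 0.0349) against Arid2-labelled libraries.

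The next counts stand beside 5.74% of all tested genes lower and 2.15% higher, and at 1 to 3 genes a list they are no result about the lists. Of 29 initiation factors, 3 fell (10.3%) and 1 rose in Smarcb1-labelled against wild-type libraries. Eif6, which keeps free large subunits from joining small ones, stood at 42.9 to 43.4 CPM in wild type against 27.8 to 29.9 in Smarcb1-labelled libraries (log2 fold change -0.59, SE 0.09, edgeR adjusted p = 0.00965). Eif2b2 (-0.47, adjusted p = 0.0217) and Eif3g (-0.38, adjusted p = 0.0377) also fell. Eif3j rose in both comparisons with wild type, by 1.66 (SE 0.22, edgeR adjusted p = 0.0201) in Arid2-labelled and 1.10 (adjusted p = 0.0214) in Smarcb1-labelled libraries, and was the only gene of the 6 lists called in the first. Its wild-type libraries stood at 4.95 to 5.61 CPM, the Arid2-labelled at 15.6 to 16.8 and the Smarcb1-labelled at 7.52 to 14.0. The mouse genome holds a near-identical copy of Eif3j, so these counts are uncertain.

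Of 33 ribosome assembly genes, 3 rose and 1 fell (3.03%) in Smarcb1-labelled against wild-type libraries. Gnl3 (nucleostemin, 0.55), the nucleolar helicase gene Ddx21 (0.43) and Tsr1 (0.62), which acts late in small-subunit assembly, rose (edgeR adjusted p = 0.0373, 0.0387 and 0.0490). Bop1, needed for large-subunit maturation, fell by 0.68 (edgeR adjusted p = 0.0290). None of 13 RNA polymerase I genes was called by edgeR (3 higher and 1 lower at an unadjusted p under 0.05), Rrn3 coming nearest at 0.33 (adjusted p = 0.0538). Of 15 regulators in the mTOR and Myc pathways, Mtor fell by 0.54 (edgeR adjusted p = 0.0301), and so did Akt1s1, a subunit that restrains mTOR complex activity, by 1.08 (adjusted p = 0.0101). Eif4ebp2, a translation repressor that mTOR inactivates, rose by 0.81 (edgeR adjusted p = 0.0218).

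The counts against Arid2-labelled libraries stand beside 9.32% of all tested genes lower and 6.95% higher. They are no result about the lists either. Lower were 9.09% of the assembly genes, 6.9% of the initiation factors and 7.69% of the polymerase I genes. Against Arid2-labelled libraries the Smarcb1-labelled ones had 3 of these assembly genes higher, led by Gnl3 (0.64, edgeR adjusted p = 0.0168), and 3 lower, among them Rrp9 (-0.85, adjusted p = 0.0188). Eif3k and Eif6 fell and Eif1a rose among the initiation factors (edgeR adjusted p = 0.0223, 0.0241 and 0.0359). Taf1c, a subunit of the polymerase I selectivity factor, fell by 0.91 (edgeR adjusted p = 0.0449).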

How the data were processed

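RNA was extracted from frozen thyroids with TRIzol and sequenced from Illumina TruSeq libraries, per the labels' protocols. The values are raw read counts per gene as deposited by the authors, and STAR 2.4, HTSeq 0.6.1, DESeq2 and mm9 are named, without role or order, in the submitters' processing notes. Whether counting used strand is not given in the sources used here. Libraries were grouped by genotype label. Differences were tested with edgeR 4.0.16 (quasi-likelihood, TMM, filterByExpr, all 9 libraries in 1 fit, Benjamini-Hochberg adjustment over 17079 genes) in R 4.3.3, called at an adjusted p under 0.05, and levels are TMM-scaled CPM. Shares of counts had an exact permutation test (scipy 1.17.1). GC content, lengths and sequences are from GENCODE M21 and RefSeq for GRCm38, matched by symbol, while counts are on mm9. All 80 members and all 207 list entries were found. The edgeR and GC steps were checked with simulated counts.

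Members, lists and the rule for named genes were chosen with earlier results of these data known. The rule named up to 12 called members per comparison, stalk genes and restricted paralogs, the 4 highest and 4 lowest members by level, the 4 widest separated differences per comparison, and up to 3 genes per pathway list; other genes were named after their values were seen. Alternatives were scaling (DESeq2 1.42.0 size factors, upper quartile, library totals, TMM without members), filters, DESeq2, limma-voom (3.58.1), a threshold of 0.01, GC or length trends removed as offsets, fewer libraries, and, added after seeing the data, pseudogene rows summed with parents and a parathyroid covariate. Counting error alone is small at these depths, but reads carry no molecular identifiers, so such error is a lower limit. Some genes counted in the totals are not reported here by name, nor shown in the plots of single genes.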

Additional observations from a re-analysis of the deposited data

Results flagged for a closer look

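The report's comparisons leave out rows named as pseudogenes of ribosomal protein genes. In 3 such rows some libraries stood out, each with at least 100 counts and, scaled to library totals, at least 20 times the highest wild-type library. Rps13-ps1 had 414, 408 and 327 counts in the Smarcb1-labelled libraries (replicates 1 to 3) where wild type had 2, 1 and 0, and its sequence matches 454 of the 456 coding bases of Rps13. Of Rps2-ps13, 1150 and 1221 counts came from replicates 2 and 3 of the Arid2-labelled group, against 4 in replicate 1 of that group and 0, 0 and 1 in wild type. Rpl34-ps1 had 510 counts in Smarcb1-labelled replicate 1, against 2 to 4 in wild type and 4 and 6 in the other libraries of its group. The genotype labels alone do not order the last 2 patterns, since libraries of 1 group differed.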

How the results depend on the processing

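The 0 calls in Arid2-labelled against wild-type libraries held in all alternatives except DESeq2, which called 1 member lower. In Smarcb1-labelled against wild-type libraries the 14 lower calls became 8 with the GC trend removed (1 higher), 8 with the length trend removed (3 higher), 5 with the parathyroid covariate, 6 in a fit of the 6 libraries compared and 3 at an adjusted p under 0.01. Over all tested genes 981 lower calls became 231, 843, 168, 389 and 176 in the same settings. The 368 higher calls became 162, 285, 29, 97 and 16. DESeq2 called 18 members lower and 3 higher, and 2 were higher without the libraries with thymocyte markers. Over all tested genes DESeq2 called 1762 lower and 1006 higher, and without those libraries edgeR called 1563 lower and 603 higher. The members' lower calls ranged from 5 to 16 and higher calls from 0 to 4 over the fits without 1 library. Over all tested genes lower calls ranged from 291 to 1483 and higher calls from 52 to 1055 in those fits. In Smarcb1-labelled against Arid2-labelled libraries the 15 lower calls became 23 by DESeq2 (2 higher), 5 at an adjusted p under 0.01 and 2 with the parathyroid covariate. Over all tested genes 1592 lower calls became 2293, 244 and 110, and 1187 higher calls became 2044, 80 and 35. Without 1 library the members' lower calls ranged from 4 to 17 and higher calls from 0 to 5. Those of all genes ranged from 297 to 2220 and from 98 to 2191. With the length trend removed 2 members were higher, beside 1076 of 17079 genes. The median log2 fold change against wild type moved to 0.036 with the length and -0.003 with the GC trend removed and ranged from -0.177 to -0.023 without 1 library, and against Arid2-labelled libraries to -0.013 with the length and -0.037 with the GC trend removed and to -0.205 to -0.0751 without 1 library. In Arid2-labelled against wild-type libraries it ranged from -0.028 to 0.131. The cause of these shifts was not tested.

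Without 1 library the difference in the share of counts ranged from -0.0807 to 0.129 percentage points for Arid2-labelled and from -0.162 to 0.0476 for Smarcb1-labelled against wild type, so its sign was not fixed. Among single genes, Rps15 against Arid2-labelled libraries went from -0.54 to 0.27 with the GC trend removed; its longest transcript, used for the trend, has 62.4% GC and its coding transcript 57.8%. Rps27l turned to -0.051 there. Against wild type Rps27l turned to 0.13 with the length trend removed, 0.033 without the libraries with thymocyte markers, 0.093 with the covariate and ranged from -0.28 to 0.12 without 1 library. Rpl3l turned to 0.17 in limma-voom and ranged from -1.80 to 0.88, and Rplp0 in Arid2-labelled against wild-type libraries ranged from -0.019 to 0.091. None of these 3 was called. No paired analysis was possible because the labels carry no replicate numbers and name no pairing. The replicate numbers used here follow the order of the samples and link no libraries across groups. With 3 libraries a group, small differences cannot be told from the spread; depth was no limit except for Rpl10l, Rpl39l and Rpl3l.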
